A study of Homo sapiens with 6 samples.

Results

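The genes described here serve ribosome biogenesis and transcription by RNA polymerase I. They are a fixed list of 40 genes out of 18132 genes measured on the arrays, and 39 of them were read by a probe set assigned to that symbol alone. GNL3 was not analysed here. Total RNA was measured on 6 Affymetrix arrays, 3 of a line in which a short hairpin RNA stably lowers the kinase gene MAP4K5 (knockdown) and 3 of A375 cells (control). A375 is a human melanoma cell line and the parent of the knockdown line; both were cultured alike and left untreated, and the comparison asks what differs when MAP4K5 is reduced. The labels give neither the hairpin sequence, nor a vector for the control cells, nor the number of clones behind the knockdown line. With 1 such line, off-target or selection effects and lower MAP4K5 cannot be told apart. The labels call the arrays biological replicates without saying how cultures were separated, so each p-value reflects only how far these arrays scatter, which may be technical.

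Ribosomes are built in the nucleolus. RNA polymerase I transcribes the precursor of the large ribosomal RNAs, small nucleolar ribonucleoproteins (snoRNPs) guide its chemical modification, and ordered groups of assembly factors cut and fold it into a small and a large subunit. Growing tumour cells need many ribosomes, and the transcription factor MYC is known to activate RNA polymerase I and many of these assembly genes.

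MAP4K5 measured 19.7, 18.8 and 20.3 in knockdown arrays 1 to 3, against 77.7, 78.1 and 76.3 in control arrays 1 to 3. Levels here are RMA intensities on a linear scale, and intensities of different genes come from different probes, so the marker ranks and sums below are only a rough guide. The log2 fold change, knockdown minus control, was -1.98 ± 0.08 (SE; limma adjusted p = 2.9e-05), and the exact permutation p was 0.1, the smallest that 3 arrays against 3 allow. Of the 7 measured melanocyte lineage markers, the regulator MITF (rose), the regulator SOX10 (fell) and S100B (fell) were above the median gene in intensity, while the pigment genes PMEL, MLANA, TYR and TYRP1 were below it. The 4 measured leukocyte markers (1 of them, LYZ, rose), 5 fibroblast and 4 endothelial markers were all below it. Control replicate 2 stood apart from the other controls over many genes. The summed intensity of 5 proliferation markers, none of them called with all arrays and with PCNA and TOP2A adding most, was 1972 to 2078 in knockdown arrays, 2120 in control replicate 2, and 1459 and 1276 in control replicates 1 and 3. Without control replicate 2, PCNA rose by 1.13 on the log2 scale (limma adjusted p = 9.8e-05), MCM2 by 0.50 (0.0073) and CCNB1 by 0.39 (0.0099). MKI67 and TOP2A were not called in that fit. Of the epithelial markers, 1 of 5 rose (KRT18), and their summed intensity, nearly all of it KRT18, was 1886 to 2190 in knockdown arrays and 1186 to 1335 in control arrays. EPCAM, CDH1 and KRT19 were below the median gene in intensity and were not called. KRT8 was not called with all arrays, and without control replicate 2 it rose by 0.84 (limma adjusted p = 0.00151). The part of these markers in the results below was not tested.

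Measured differences between knockdown and control cells were small for most ribosome biogenesis genes, and those past the test moved in both directions. Of the 39 genes, 5 rose (NOP56, NOP16, AATF, RRS1 and NOP2), 2 fell (MYBBP1A and POLR1B) and 32 were not called at a limma adjusted p under 0.05 over all 18132 genes. The 5 rises were 1.3-fold to 1.5-fold. Over all genes 7.83% were called, 3.7% upwards and 4.13% downwards, against 17.9% of the 39 genes, 12.8% upwards and 5.13% downwards. The share over all genes includes dim genes, while all 39 lay in the brighter 50%. With the lowest 50% of genes left out, 1633 of 9066 genes were called, 818 upwards and 815 downwards. That share was about equal to the 7 of 39 called there, so the total called was no higher than among the brighter 50% of genes. No closer match on intensity was made. The median log2 fold change of the 39 genes was 0.051, beside 0.01 over all genes, and 23 of the 39 lay within 0.2 of zero in either direction.

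The calls depended on the arrays. In 6 further fits, each without 1 array, 15 of the 39 genes were called without control replicate 2, 10 upwards and 5 downwards, where 20.6% of all genes were called, 10.5% upwards and 10.1% downwards. Only NOP56 and MYBBP1A (5.13% of the 39) were called without control replicate 1 and without control replicate 3, where 2.88% and 3.12% of all genes were called. Without any 1 of the knockdown arrays 0 were called, where 1.79% to 2.16% of all genes were. The groups did not overlap for 17 of the 39 genes, 12 higher and 5 lower in knockdown cells (43.6%), and for 28.1% of all genes, 14.9% higher and 13.2% lower. The shares over all genes in this paragraph include dim genes and were not taken among brighter genes alone.

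**Figure D1:**
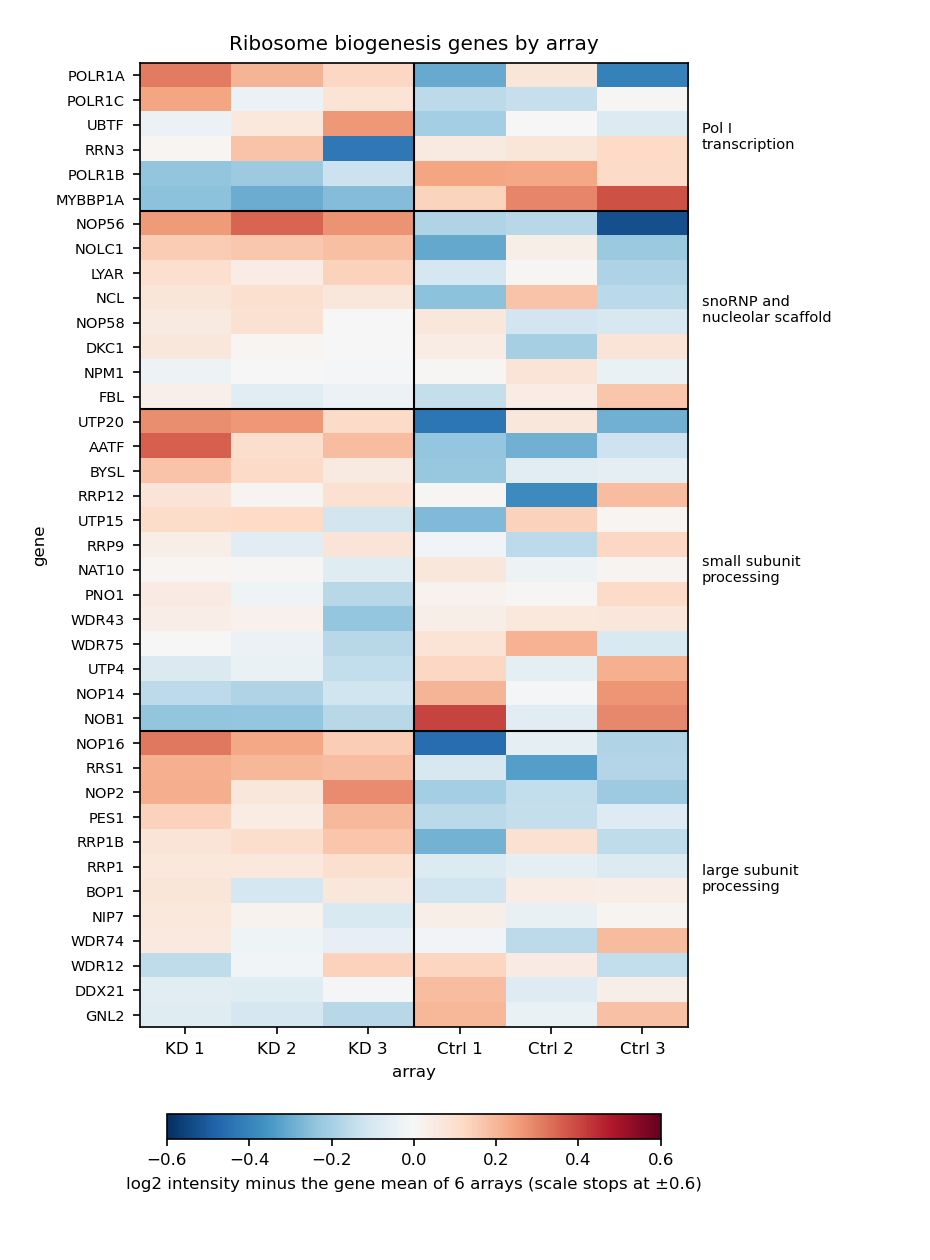
Log2 intensity of the 39 measured genes (rows, by role) in each array (columns, 3 knockdown and 3 control arrays), minus the mean of the gene over the 6 arrays. NOP56, NOP16, RRS1, AATF and NOP2 are red in all 3 knockdown arrays and blue in all 3 controls, POLR1B and MYBBP1A are the reverse, and most rows are pale.

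**Figure D2:**
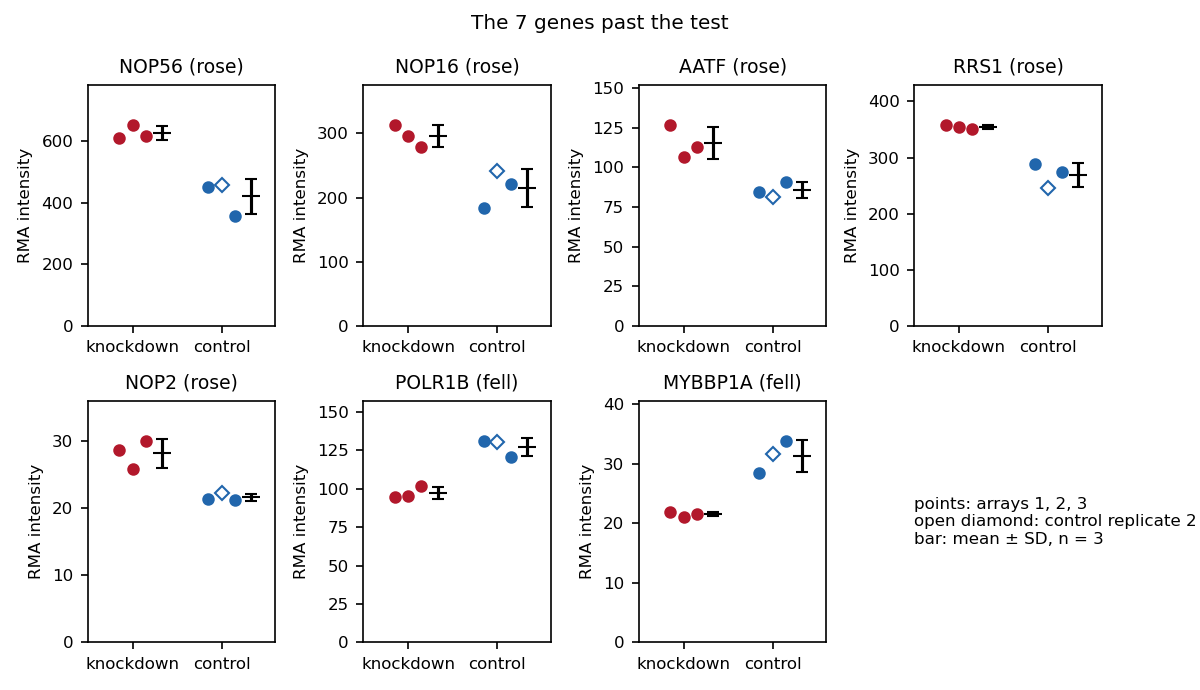
RMA intensity (linear axis from 0) of the 7 genes past the test, with 1 point for each array and the mean ± SD of 3 arrays beside it. In each panel the knockdown and control arrays do not overlap, and the open diamond is control replicate 2.

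Among the 6 genes of RNA polymerase I transcription, MYBBP1A and POLR1B fell, 0 rose and 4 were not called. MYBBP1A encodes a nucleolar protein that binds the polymerase I machinery and is known as a repressor of ribosomal RNA gene transcription. Its intensity was 21.9, 21.1 and 21.6 in knockdown arrays, against 28.5, 31.7 and 33.8 in control arrays. All knockdown arrays lay below all controls, and control replicate 2 lay between the other controls. This was a log2 fold change of -0.54 ± 0.09 (SE; limma adjusted p = 0.012), and it was -0.60 to -0.48 in the 6 fits without 1 array. Its 5 probe sets all had a negative fold change, -0.54 to -0.18, and 1 was called when each probe set was tested. In the mean of the 5 it stood at -0.35 and was not called (adjusted p = 0.0582). The stretch before the annotated start of MYBBP1A is printed here because its NRF1 motif, in capitals, starts 18 bases before that start. NRF1 is a transcription factor of many housekeeping genes. The sequence covers chr17:4555385-4555439 on the minus strand of GRCh38.p14, from RefSeq.
MYBBP1A: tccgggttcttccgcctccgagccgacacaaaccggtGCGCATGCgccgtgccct

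POLR1B encodes a subunit of the catalytic core of RNA polymerase I. It measured 94.5, 95.6 and 102 in knockdown arrays, against 131, 131 and 121 in control arrays. Control replicate 2 was as high as control replicate 1, and no knockdown array reached a control. On the log2 scale the fold change was -0.39 ± 0.08 (SE; limma adjusted p = 0.0275), and 2 of 6 probe sets were called, both lower. Leaving out _x_at and _s_at probe sets, types that may cross-hybridise, it was -0.21 and not called (adjusted p = 0.237).

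POLR1A, the other core subunit of the enzyme, stood the other way. Its intensity was 22.6, 21.0 and 19.9 in knockdown arrays, against 14.8, 19.2 and 13.8 in control arrays. The groups did not overlap, but control replicate 2 lay just under the knockdown arrays. POLR1A had a log2 fold change of 0.43 ± 0.13 (limma adjusted p = 0.0863), and without control replicate 2 it rose by 0.57 (adjusted p = 0.00344). The dimmer of its 2 probe sets stood at 0.01. RRN3, which links the polymerase to its promoter, measured 35.2, 39.3 and 25.9 in knockdown arrays, against 36.3, 36.7 and 38.0 in control arrays. Knockdown replicate 3 was the low value, the groups overlapped, and the log2 fold change was -0.17 (adjusted p = 0.555). UBTF, which binds the ribosomal RNA gene, and POLR1C, a subunit shared with RNA polymerase III, each stood at 0.19 and were not called.

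Of the 8 genes of snoRNPs and the nucleolar scaffold, NOP56 rose, 0 fell and 7 were not called. NOP56 is a core protein of the box C/D snoRNPs, which guide methylation of ribosomal RNA. It measured 609.8, 652 and 617 in knockdown arrays, against 451, 456 and 355 in control arrays. Every knockdown array lay above every control, and control replicate 2 sat beside control replicate 1. Its log2 fold change was 0.58 ± 0.11 (SE; limma adjusted p = 0.0206), a 1.5-fold rise, with 0.46 to 0.64 over the 6 fits without 1 array. All 4 NOP56 probe sets rose, by 0.58 to 0.63. Apart from the brightest, they read 345, 443 and 317, then 285, 366 and 273, then 203, 209 and 154 in control arrays. Control replicate 2 thus stood well above control replicate 1 in some probe sets and beside it in others. All 4 are of the _x_at or _s_at type, so NOP56 has no value with those types left out.

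The partners of NOP56 in the same particle were not called. NOP58, its paired core protein, stood at 0.10 ± 0.09 (limma adjusted p = 0.557), and FBL, the methyltransferase of the particle, at -0.05 ± 0.10 (adjusted p = 0.837). Whether NOP56 differs from them in its change was not tested. DKC1, the pseudouridine synthase of the box H/ACA snoRNPs, stood at 0.05 and LYAR, a nucleolar growth regulator, at 0.19. NPM1, an abundant nucleolar chaperone, measured 3243, 3314 and 3282 in knockdown arrays, against 3332, 3494 and 3223 in control arrays. The groups overlapped, and the log2 fold change was -0.03 (adjusted p = 0.867). NPM1 has processed copies in the human genome, so its probe sets may not read 1 locus alone.

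NOLC1, a chaperone of snoRNPs, and NCL, a major nucleolar RNA-binding protein, were called without control replicate 2 and not with all arrays. NOLC1 measured 570.0, 573 and 581 in knockdown arrays, against 414, 525 and 439 in control arrays. NCL measured 1315, 1339 and 1312 in knockdown arrays, against 1057, 1407 and 1119 in control arrays. For NOLC1 control replicate 2 was the highest control, and for NCL it was above all knockdown arrays. The log2 fold changes were 0.33 (limma adjusted p = 0.0915) and 0.16 (adjusted p = 0.465) with all arrays, and 0.43 (adjusted p = 0.00641) and 0.28 (adjusted p = 0.0372) without control replicate 2.

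Of the 13 genes of small subunit processing, AATF rose, 0 fell and 12 were not called. AATF encodes a nucleolar protein of early small subunit assembly that also has a role in transcription and cell survival. Its intensity was 127, 107 and 112 in knockdown arrays, against 84.2, 81.0 and 90.9 in control arrays. Control replicate 2 was the lowest of the 6 arrays, and the groups did not overlap. The log2 fold change of its only probe set was 0.43 ± 0.10 (SE; limma adjusted p = 0.0328).

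UTP20, a scaffold protein of the precursor particle, and NOB1, the nuclease that makes the final cut of the small subunit RNA, were called without control replicate 2 and not with all arrays. UTP20 measured 38.4, 37.9 and 34.3 in knockdown arrays, against 23.5, 33.1 and 25.9 in control arrays. Its log2 fold change was 0.44 ± 0.13 (limma adjusted p = 0.0831) with all arrays, and it rose by 0.58 (adjusted p = 0.00355) without control replicate 2. NOB1 measured 405, 406 and 424 in knockdown arrays, against 630.5, 456 and 582 in control arrays. Its log2 fold change was -0.42 ± 0.12 (adjusted p = 0.0766), and it fell by 0.56 (adjusted p = 0.00244) without that array. In both genes the groups did not overlap and control replicate 2 was the control closest to the knockdown arrays. NOP14, a component of the same precursor particle, stood at -0.30 (adjusted p = 0.09) and fell by 0.38 (adjusted p = 0.0102) without control replicate 2. The only probe set of NOB1 is of the _s_at type.

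The stretches before the annotated starts of AATF, UTP20 and NOB1 are printed because each holds 1 of the motifs searched, in capitals. AATF and UTP20 carry the E-box CACGTG, the site that MYC and MAX are known to bind, and NOB1 carries the NRF1 motif GCGCATGC at 2 places. They cover chr17:36948760-36948839 (plus strand) for AATF, chr12:101280058-101280104 (plus strand) for UTP20 and chr16:69754927-69755104 (minus strand) for NOB1, on GRCh38.p14 from RefSeq.
AATF: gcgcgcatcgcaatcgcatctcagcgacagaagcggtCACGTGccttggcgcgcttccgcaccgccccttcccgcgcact
UTP20: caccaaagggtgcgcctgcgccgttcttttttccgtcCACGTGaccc
NOB1: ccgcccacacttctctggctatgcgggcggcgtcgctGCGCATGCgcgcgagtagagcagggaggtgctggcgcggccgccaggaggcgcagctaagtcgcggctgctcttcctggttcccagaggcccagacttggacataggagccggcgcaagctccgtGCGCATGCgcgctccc

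Windows of 250 bases before the annotated start were found for 34 of the 40 genes. Both strands were searched, and the E-box reads the same on each. The E-box was in 4 of the 34 windows (AATF, UTP20, UTP4 and NAT10), 11.8%, and in 7.83% of 14425 windows of array genes. The NRF1 motif GCGCATGC or its reverse complement GCATGCGC was in 3 (MYBBP1A, NOB1 and DKC1), 8.82%, and in 3.74% of the array genes. The ETS motif CCGGAAGT or its reverse complement ACTTCCGG, read by a family of transcription factors, was in 4 (POLR1C, UTP4, DDX21 and WDR74), 11.8%, and in 5.26%. The 3 motifs share no full match with one another, and a match describes letters in the window and no binding. The genes that carry the E-box differed in direction and size: AATF rose, and UTP20 (0.44), UTP4 (-0.18) and NAT10 (-0.04) were not called.

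The remaining genes of small subunit processing stood between -0.18 and 0.23, and 0 were called. They include UTP4, WDR43 (-0.11) and WDR75 (-0.13), which join the precursor RNA early, the export factor RRP12 (0.12), BYSL (0.23), the NOB1 partner PNO1 (-0.09) and the RNA acetyltransferase NAT10. RRP9, a protein of the U3 snoRNP, had the smallest change of this role. It measured 25.6, 23.9 and 26.4 in knockdown arrays, against 24.7, 22.4 and 27.2 in control arrays, and the groups overlapped (log2 fold change 0.03, limma adjusted p = 0.882). For UTP15, another early factor, probe sets disagreed. The brightest stood at 0.08 and was not called, while the dimmest of 3 was lower (log2 -0.61 ± 0.11, limma adjusted p = 0.0185 over all probe sets). That probe set read 10.2, 8.31 and 10.1 in knockdown arrays, against 14.6, 15.3 and 13.7 in control arrays.

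Of the 12 measured genes of large subunit processing, NOP16, RRS1 and NOP2 rose, 0 fell and 9 were not called. NOP16 is a nucleolar assembly factor known as a MYC target. It measured 314, 296 and 278 in knockdown arrays, against 183, 242 and 222 in control arrays. The groups did not overlap, and control replicate 2 was the highest control. The log2 fold change was 0.46 ± 0.12 (SE; limma adjusted p = 0.046), with 0.35 to 0.55 over the 6 fits without 1 array, and its 3 probe sets stood at 0.21 to 0.46, with 0 called when each was tested. With 16 added before log2 it missed the threshold (adjusted p = 0.0743).

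RRS1, which helps to place the 5S ribonucleoprotein in the large subunit, measured 359, 355 and 351 in knockdown arrays, against 289, 246 and 274 in control arrays. Control replicate 2 was the lowest array. RRS1 had a log2 fold change of 0.40 ± 0.09 (limma adjusted p = 0.0311), and it has 1 probe set. NOP2, a methyltransferase of the large ribosomal RNA, measured 28.7, 25.8 and 30.0 in knockdown arrays, against 21.4, 22.3 and 21.2 in control arrays. In this brightest probe set the 3 controls lay close together, and all knockdown arrays were above them. The other NOP2 probe sets read 15.2, 22.6 and 18.5, and 13.5, 23.5 and 18.4, in control arrays. In both of these, control replicate 2 was the highest control and lay just under the knockdown arrays. The log2 fold change of NOP2 was 0.38 ± 0.09 (limma adjusted p = 0.0365), and its 3 probe sets stood at 0.38 to 0.53. Leaving out the _x_at and _s_at types, NOP2 stood at 0.46 and missed the threshold (adjusted p = 0.0989), as it did in the mean of its probe sets (0.46, adjusted p = 0.0564).

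The 3 subunits of the PeBoW complex, which acts in large subunit RNA processing, did not pass the test with all arrays. PES1 stood at 0.25 ± 0.08 (limma adjusted p = 0.101; 0.0444 with 16 added before log2), BOP1 at 0.02 and WDR12 at -0.02. The PES1 groups did not overlap, with 39.6, 37.1 and 41.1 in knockdown arrays, against 32.2, 32.6 and 34.1 in control arrays. NIP7, a late-acting assembly factor, had the smallest change of all 39 genes. It measured 175, 169.7 and 157 in knockdown arrays, against 171, 162 and 169 in control arrays, so the groups overlapped (log2 fold change -0.0046, adjusted p = 0.982). WDR74 (-0.01), the helicase DDX21 (-0.10) and RRP1 (0.15) were not called in any fit without 1 array. RRP1B, a relative of RRP1, and the GTPase GNL2 were not called with all arrays (0.23 and -0.22). Without control replicate 2, RRP1B rose by 0.34 (adjusted p = 0.0248) and GNL2 fell by 0.30 (adjusted p = 0.0301). With all arrays and the _x_at and _s_at types left out, RRP1B stood at -0.03 in a dim probe set (limma adjusted p = 0.937). The dimmer GNL2 probe set stood at -0.10 with all arrays.

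**Figure D3:**
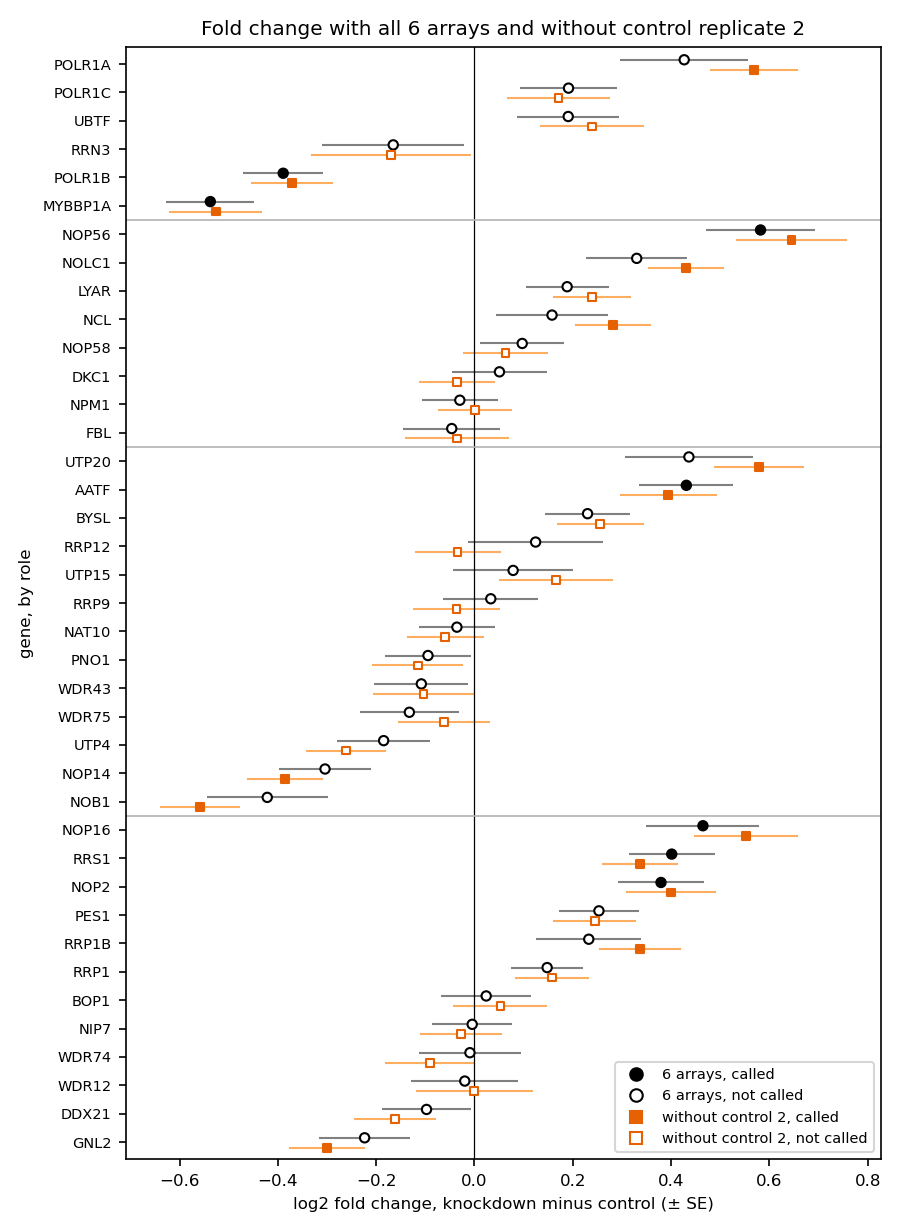
Log2 fold change (knockdown minus control, ± SE) of each gene by role, with all 6 arrays (circles) and without control replicate 2 (squares); filled symbols passed a limma adjusted p of 0.05. The 7 filled circles are MYBBP1A, POLR1B, NOP56, AATF, NOP16, RRS1 and NOP2, and 8 more genes are filled as squares but not as circles.

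Control replicate 2 did not hold 1 position across these genes. For 14 genes the mean of the knockdown arrays differed from the mean of control replicates 1 and 3 by at least 0.3 on the log2 scale. On a scale where control replicates 1 and 3 stand at 0 and the knockdown arrays at 1, control replicate 2 had a median of 0.55 over the 14, nearer to the knockdown arrays for 7 and nearer to the controls for 7. The 7 nearer to the controls were the 7 called with all arrays. The other 7 were called without control replicate 2 and not with all arrays. That array is part of the test, so the split largely restates the calls. The positions rest on the brightest probe set of each gene. In some other probe sets of NOP56, NOP2 and NOP16, control replicate 2 lay nearer to the knockdown arrays. Control replicate 2 stood at 0.92 for RRP1B, 0.77 for GNL2, 0.75 for POLR1A and 0.74 for UTP20 and NOB1. It stood at -0.06 for MYBBP1A, -0.15 for POLR1B, -0.28 for AATF and -0.57 for RRS1. Against control replicate 2 alone the 7 called genes had knockdown minus control differences of 0.29 for NOP16 to 0.53 for RRS1, and of -0.43 for POLR1B and -0.56 for MYBBP1A. The groups of these 7 do not overlap, so the direction of these differences was given beforehand and they are no separate check of the calls.

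Further genes of the pathway were listed by role, with earlier results of these data known. Of 115 listed, 111 were measured; 12 rose, 2 fell and 97 were not called, with a median log2 fold change of 0.05. That is 12.6% called, beside 7.83% over all genes, dim genes included. With the lowest 50% of genes left out, 16 of the 107 that remained were called. This was a lower share than the 1633 of 9066 called over all genes there. Without control replicate 2, 22 rose and 10 fell, 28.8% of the 111, beside 20.6% over all genes, dim genes included. At most 1 of the 111 (0.901%) was called in each of the other 5 fits without 1 array, beside 1.79% to 3.12% over all genes.

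In the list drawn up for small subunit processing 3 of 35 measured genes rose and 1 fell. IMP3, a protein of the U3 snoRNP, measured 329, 311 and 327 in knockdown arrays, against 159, 242 and 184 in control arrays (log2 fold change 0.75 ± 0.14, limma adjusted p = 0.0207; 0.0523 with 16 added before log2). The helicase DHX37, which frees the U3 RNA, rose by 0.53 ± 0.09 (adjusted p = 0.0118) and was called in 4 of the 6 fits without 1 array. EMG1, a methyltransferase, rose by 0.43 and WDR36 fell by 0.38, but with the _x_at and _s_at types left out they stood at -0.25 and 0.04, neither called. In the mean of its probe sets EMG1 stood at 0.06 and was not called.

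In the list drawn up for large subunit processing 6 of 39 measured genes rose and 1 fell. The larger rises were RRP36 (0.48), TEX10 (0.41) and EIF6 (0.40), the last a factor that keeps the subunits apart until assembly ends. RRP36 acts in small subunit RNA processing, so the counts of both lists depend on where it is placed. EIF6 missed the threshold with the _x_at and _s_at types left out (adjusted p = 0.0523). NMD3, the export adaptor of the large subunit, fell by 0.36 (limma adjusted p = 0.0394). It measured 198, 194 and 189.6 in knockdown arrays, against 253, 231 and 263 in control arrays. NMD3 was not called in the mean of its probe sets (adjusted p = 0.0642), with the _x_at and _s_at types left out (0.0975) or when each probe set was tested (0.0586).

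The snoRNP assembly gene NAF1 (0.37), at an intensity under 5.1, was the only 1 of 13 further snoRNP genes called (limma adjusted p = 0.0491). It lost that call under several alternatives, among them the mean of its probe sets (0.16, adjusted p = 0.169) and 16 added before log2 (0.077, adjusted p = 0.0829). EXOSC4 (0.39) and EXOSC6 (0.37), subunits of the RNA exosome that trims ribosomal RNA, rose, and the other 10 of 12 exosome genes were not called. EXOSC6 missed the threshold when each probe set was tested (adjusted p = 0.0532). Of 12 further genes of RNA polymerase I transcription 0 were called. Nearest to the threshold were SIRT7, a deacetylase that acts on the ribosomal RNA genes (0.44, limma adjusted p = 0.0692), and TAF1D, a subunit of the polymerase I initiation factor SL1 (-0.56, adjusted p = 0.0694). TAF1D measured 78.3, 88.5 and 93.3 in knockdown arrays, against 144, 98.3 and 147 in control arrays, so control replicate 2 lay closest to the knockdown arrays. Without control replicate 2, TAF1D fell by 0.75 (adjusted p = 0.00143), POLR1H and NOP53 also fell, 0 rose, and SIRT7 was not called (adjusted p = 0.0606). SIRT7 was called with array weights and in the mean of its probe sets (adjusted p = 0.0475 and 0.0301).

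Of 10 regulators of the MYC network, MYC and MXI1 fell and 8 were not called. MYC measured 53.8, 54.6 and 60.8 in knockdown arrays, against 130.0, 69.6 and 119 in control arrays (log2 fold change -0.87 ± 0.21, limma adjusted p = 0.0447). MXI1, which encodes an antagonist of MYC, measured 90.1, 90.6 and 105 in knockdown arrays, against 230.5, 140.2 and 226 in control arrays (-1.03 ± 0.18, adjusted p = 0.016). MXI1 stood at -0.70 and was not called (adjusted p = 0.122) with the _x_at and _s_at types left out. With 16 added before log2 both missed the threshold (MYC adjusted p = 0.119, MXI1 0.0554), as MYC did when each probe set was tested (0.0563). Both kept their call only without control replicate 2 among the 6 fits without 1 array. Control replicate 2 was the lowest control for both, and against it alone MYC stood at -0.31 and MXI1 at -0.56.

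**Figure D4:**
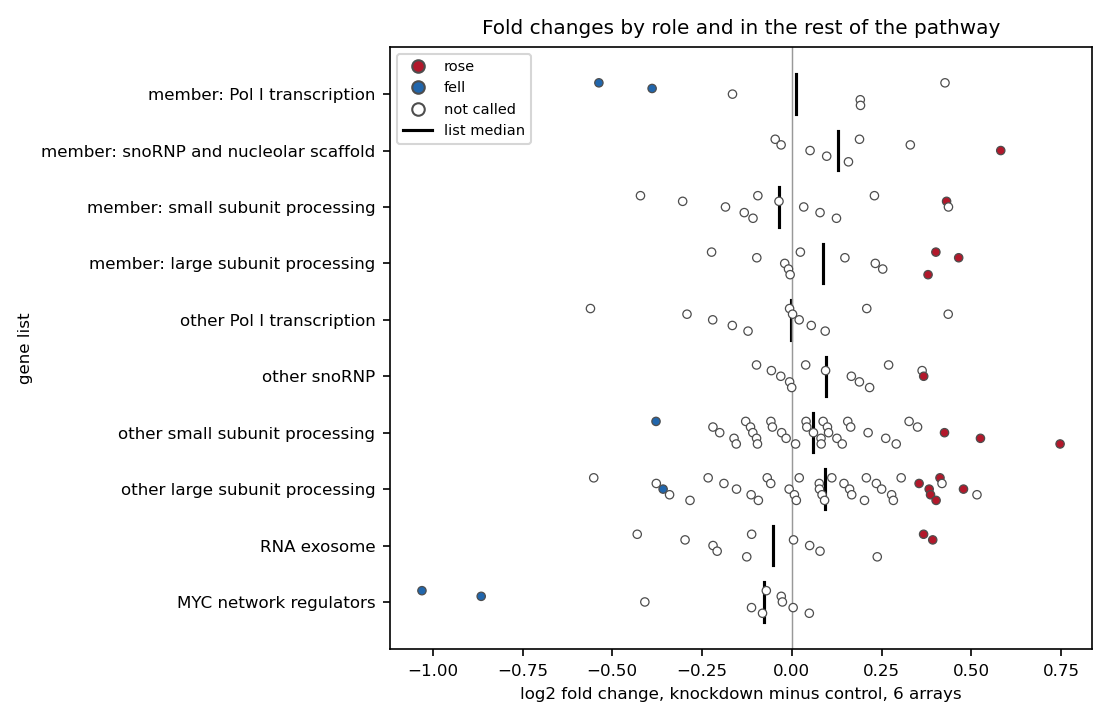
Log2 fold change (knockdown minus control, 6 arrays) of the 39 genes by role, of 111 further pathway genes and of 10 MYC network genes; each point is a gene and each bar a list median. Called genes (red rose, blue fell) are few in every list, the list medians lie near 0, and MXI1 and MYC are the lowest points.

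Among 3412 genes outside these lists, above the median intensity and with an SD of at least 0.2 on the log2 scale, the profiles most like the mean of the 39 genes over the 6 arrays were SEC11C (Pearson r = 0.995), SPNS1 (0.994) and E2F2 (0.988). This is a description over 6 arrays chosen from many genes. SEC11C measured 64.3, 58.9 and 55.0 in knockdown arrays, against 40.1, 45.2 and 47.8 in control arrays. The mean of the 39 genes was 0.06, 0.03 and 0.01 in knockdown arrays, against -0.06, -0.03 and -0.02 in control arrays, in log2 units around each gene's mean.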

How the data were processed

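The authors deposited linear-scale intensities per probe set, made with RMA per the submitters' processing notes (background correction, quantile normalization, probe set summary), which compresses folds of dim probe sets. The RMA version and any scan batches are not given. No depth applies to arrays, so their number limits the precision. Log2 was taken without an offset. Of 49293 probe sets, 44988 carried 1 symbol, 1832 several and 2473 none; each gene was its brightest single-symbol probe set by mean log2 over 6 arrays. Knockdown was compared with control by limma (3.58.1, R 4.3.3; lmFit, eBayes) with Benjamini-Hochberg adjustment over 18132 genes at 0.05, "called" meaning past it. On simulated arrays of that comparison with 200 of 18132 genes changed by 1 on the log2 scale, 90% were recovered with 7 false calls. The changes of the 39 genes were smaller (-0.54 to 0.58), so that share does not give the recovery of changes of their size. The simulated noise was independent between genes, with no shift of control replicate 2 shared by many genes. The members and lists were chosen with earlier results of these data known. Intensities in every array are given for called genes, for genes called without control replicate 2 with a change of at least 0.5, and for the largest and smallest change of each role; NOLC1, NCL, PES1, the UTP15 probe set and further pathway values were added after their values were seen. Of each further list up to 3 rises and 3 falls were named. Other steps used scipy 1.17.1 and pandas 2.3.3 in Python 3.11.15. Promoter windows are RefSeq's, build GRCh38.p14; the motifs were chosen with these results known, and the NRF1 motif was shortened to 8 letters after a longer form had been searched. Alternatives were arrays left out, a replicate block, trend, array weights, 2 normalizations, filters on dim genes, other probe set choices and an offset of 16.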

Additional observations from a re-analysis of the deposited data

How the results depend on the processing

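Of the 39 genes, those called numbered 7 with all arrays and 0 to 15 when 1 array was left out. They numbered 12 with array weights, which added POLR1A, NOLC1, UTP20, NOP14 and NOB1, 4 with _x_at and _s_at types left out and 2 with the replicate number as a block. The 111 further pathway genes gave 14 calls, 0 to 32 without 1 array, 27 with array weights, 7 with those types left out and 3 with the replicate block. All genes called numbered 1420 with all arrays, 324 to 3732 without 1 array, and 3103 with array weights. The replicate number did not pair the arrays: deviations of same-numbered arrays from their group means correlated at -0.08, 0.02 and 0.06. The block gave 1188 calls over all genes, and among the 39 it left NOP56 and MYBBP1A called. The median log2 fold change of the 39 genes (0.051) was 0.0011 to 0.10 without 1 array, 0.031 with array weights and 0.024 with probe sets averaged. The median position of control replicate 2 (0.55) was 0.44 to 0.66 without 1 other array, 0.63 after repeated quantile normalization, 0.50 after a shift to a common median, 0.62 with probe sets averaged, 0.64 with _x_at and _s_at types left out and 0.38 with 16 added before log2. MAP4K5 kept its call and direction in all alternatives. Among genes past the test, EMG1 (-0.25) and WDR36 (0.042) changed sign without those types. The cause was not tested. NOP56 and NOB1 have no value without them, and the position of control replicate 2 has none without that array. Precision is limited by 3 arrays a group, and an exact test cannot go under 0.1.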
